A study of Mus musculus with 6 samples.

Results

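The genes described here encode nuclear subunits of the last 3 machines of mitochondrial respiration, with the electron carrier between them. They were taken by platform symbol (starting with Uqcr, Cox4, Cox5, Cox6, Cox7, Cox8 or Atp5, with Cyc1 and Cycs, and without Cox7a1 and Cox8b), which gave 42 of the 17720 genes measured. By complex these were 9 genes of complex III, 15 of complex IV and 17 of complex V, with Cycs (cytochrome c) standing alone. The rule reads symbols only, but it was chosen with earlier results of these data known. Cox7a1 and Cox8b, left out by name, had larger differences than any member in the comparisons with brown adipocytes, given below. The probe set that stood for a gene was picked by its mean level, which is a measured value. The rule includes Cox7a2l, a supercomplex factor, and isoform genes known mainly from other tissues.

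Adipocyte RNA was hybridised to 6 arrays in 3 groups of 2. Marrow-derived adipocytes were sorted by flow cytometry from the floating cells of gonadal fat of mice that carried a bone marrow transplant, from GFP-expressing donors in replicate 1 and from LacZ-expressing donors in replicate 2. Brown adipocytes came from the fat between the shoulder blades and white adipocytes from gonadal fat. Each sample pooled several sorts and was amplified before labelling, and the labels used here give no age, sex, strain or genotype beyond the donor markers. The labels call the samples biological replicates without naming separate animals, and the tests therefore reflect scatter among these arrays that may in part be technical.

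Complex III (cytochrome bc1) takes electrons from ubiquinol and hands them to cytochrome c, which carries them to complex IV (cytochrome c oxidase), where oxygen is reduced. Both complexes pump protons across the inner mitochondrial membrane, and complex V (ATP synthase) lets protons back through a rotating ring of c subunits to make ATP. Brown adipocytes are known for dense respiring mitochondria in which Ucp1 gives the protons another way back, and for having little ATP synthase in rodents, where expression of the c subunit gene Atp5g1 is known to limit it.

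The markers went with the brown and white labels, while the marrow-derived arrays had high adipocyte markers and low brown ones. Adipocyte markers (5 of 6 measured) averaged 12.12 and 11.60 on the log2 scale in the marrow-derived arrays, 12.65 and 12.67 in the brown and 12.74 and 12.89 in the white. Brown adipocyte markers averaged 7.09 and 4.48 in the marrow-derived arrays, 11.83 and 12.20 in the brown and 7.35 and 6.79 in the white. White adipocyte markers averaged 9.88 and 9.29 in the marrow-derived arrays, 9.83 and 10.45 in the brown and 12.16 and 12.69 in the white, and 3 of 4 were lower in marrow-derived than in white. The 8 macrophage markers averaged 11.21 in the GFP and 8.77 in the LacZ array, 8.95 and 8.28 in the brown and 11.32 and 9.85 in the white arrays, with 0 called in any comparison. All 8 were nonetheless higher in marrow-derived than in brown (median 1.47). All 8 were lower in marrow-derived than in white (-0.55) and lower in brown than in white (-1.97). The wide gap between the marrow-derived arrays enters the standard error of every comparison, so the 0 calls do not show equal levels. The median distance between the marrow-derived arrays was 0.15 over the 42 respiratory genes and 0.28 over all genes. It was 0.08 and 0.21 between the brown arrays, and 0.10 and 0.23 between the white arrays. Of the 42 genes, 36 were higher in marrow-derived replicate 1 (GFP) than in replicate 2 (LacZ). Replicate 1 was higher for 23 in the brown and 9 in the white pair. Xist, the RNA of X inactivation, was 179-fold higher in marrow-derived than in brown and 206-fold higher than in white arrays (log2 difference 7.48 ± 0.19, adjusted p = 0.000849, and 7.69 ± 0.19, adjusted p = 0.00113), so sex and cell origin cannot be told apart in comparisons with these arrays. In pooled cells like these, fewer cells of a type and less RNA per cell cannot be told apart either.

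Across the 3 groups most subunits took the same order, lowest in marrow-derived, next in white and highest in brown adipocytes. In 30 of the 42 genes all arrays kept that order with no overlap between groups, against 7.95% of all genes. These were 9 of 9 genes of complex III, 8 of 15 of complex IV, 12 of 17 of complex V and Cycs. They include Cox7b2, which lay at only 2.34 to 2.89 on all arrays, and Atp5g2, whose brown 1 and white 2 values both round to 11.36. The median over the complex III genes was 10.84 and 10.70 in the marrow-derived arrays, 12.87 and 12.82 in the brown and 11.72 and 11.88 in the white. For complex IV it was 11.60 and 11.77 in the marrow-derived arrays, 12.68 and 12.79 in the brown and 12.22 and 12.37 in the white. For complex V it was 12.40 and 12.23, 12.99 and 13.06, and 12.62 and 12.71 in the same groups. The median over all genes moved far less, from 7.32 to 7.49 over the 6 arrays.

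**Figure D1:**
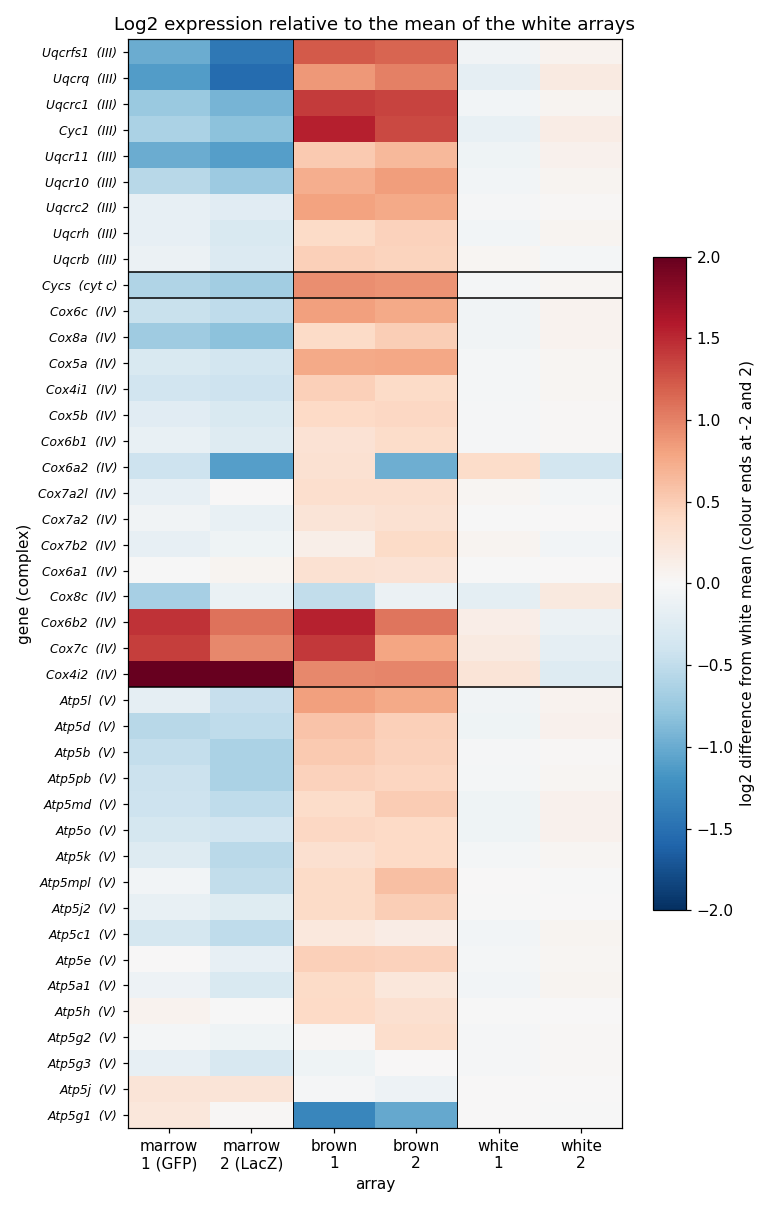
Log2 expression of the 42 genes (rows, by complex) on each of the 6 arrays (columns), as the difference from the mean of the white arrays, with colours ending at -2 and 2. The marrow-derived columns are mostly blue and the brown columns mostly red; Atp5g1 is blue only in brown, and Cox4i2 lies past the colour range in both marrow-derived arrays.

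Marrow-derived adipocytes had lower values than brown adipocytes for all 9 complex III genes, for Cycs and for some of the subunits of complexes IV and V. Over the 42 genes 23 were called lower and 2 higher (limma, adjusted p at most 0.05), which is 59.5% called against 20.4% of all genes (11.7% lower and 8.71% higher). The median log2 difference was -1.63 for complex III, -0.41 for complex IV and -0.62 for complex V, against 0.02 over all genes. Within complex IV it was -0.67 for the 9 subunits of the common enzyme and -0.10 for the 5 isoform genes known mainly from other tissues. The counts rested on the brown arrays: without brown replicate 1 there were 3 lower and 1 higher, without brown replicate 2 there were 2 lower and 0 higher, and without marrow-derived replicate 2 (LacZ) there were 15 lower. The lower genes left without brown replicate 2 were Cyc1 and Uqcrc1, and without brown replicate 1 Uqcrfs1 was called beside them. Over all genes the lower calls numbered 355 and 239 without those brown arrays, against 2068 with all arrays. Fibroblast and preadipocyte markers moved with this comparison: their mean over 6 markers was 10.59 and 10.10 in the marrow-derived arrays, 8.67 and 7.97 in the brown and 10.82 and 9.77 in the white. Of these 3 were higher in marrow-derived than in brown (Dcn, Col1a1 and Col3a1) and 1 was lower, and their part in the subunits' differences was not tested.

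Among the lower genes the 4 largest differences were those of Uqcrfs1, Uqcrq, Uqcrc1 and Cyc1, all of complex III. Uqcrfs1 (chromosome 13), the Rieske iron-sulfur protein, stood at 10.84 and 10.39 in the marrow-derived arrays, 13.05 and 12.99 in the brown and 11.75 and 11.90 in the white. No groups overlapped. It was 5.29-fold lower in marrow-derived than in brown adipocytes (log2 difference -2.40 ± 0.21 SE, n = 2 arrays a group, adjusted p = 0.00385 by limma).

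Cyc1, cytochrome c1, which passes the electron on to cytochrome c, stood at 10.47 and 10.29 in the marrow-derived arrays, 12.66 and 12.42 in the brown and 10.96 and 11.25 in the white, and was 4.48-fold lower in marrow-derived than in brown (-2.16 ± 0.20, adjusted p = 0.00415). Uqcrc1, a core protein that faces the matrix, was 4.60-fold lower (-2.20 ± 0.16, adjusted p = 0.00297), with 10.73 and 10.55 in the marrow-derived arrays, 12.87 and 12.82 in the brown and 11.42 and 11.53 in the white. Its partner Uqcrc2 was 1.97-fold lower (-0.98 ± 0.15, adjusted p = 0.014). Uqcrq, a small accessory subunit near cytochrome b, had 10.48 and 10.06 in the marrow-derived arrays, 12.47 and 12.60 in the brown and 11.42 and 11.78 in the white, and was 4.81-fold lower than in brown (-2.27 ± 0.23, adjusted p = 0.00527). The other small subunits were lower by less: Uqcr11 (-1.63 ± 0.16), Uqcr10 (-1.42 ± 0.16), Uqcrh (-0.66 ± 0.16) and Uqcrb (-0.65 ± 0.16). So the smallest differences in complex III were those of Uqcrb and Uqcrh.

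Cycs, cytochrome c, followed the complex it takes electrons from. It stood at 11.48 and 11.39 in the marrow-derived arrays, 13.02 and 12.99 in the brown and 12.04 and 12.13 in the white. It was 2.97-fold lower in marrow-derived than in brown adipocytes (-1.57 ± 0.15, adjusted p = 0.00493), and no groups overlapped.

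In complex IV 5 of the 9 subunits of the common enzyme were lower than in brown, and an isoform of subunit 4 was higher. Cox6c was 2.40-fold lower (-1.26 ± 0.16, adjusted p = 0.00803), with 11.92 and 11.87 in the marrow-derived arrays, 13.19 and 13.13 in the brown and 12.30 and 12.44 in the white. Cox8a was 2.30-fold lower (-1.20 ± 0.16, adjusted p = 0.00978) and Cox5a 2.14-fold lower (-1.10 ± 0.15, adjusted p = 0.0102). Cox4i1, the usual isoform of the regulatory subunit 4, differed by -0.83 ± 0.15 (adjusted p = 0.0212) and Cox5b, a zinc-binding subunit, by -0.67 ± 0.15 (adjusted p = 0.0355). The subunits Cox6b1 (-0.53 ± 0.15), Cox7a2 (-0.39 ± 0.15) and Cox6a1 (-0.27 ± 0.15), with the supercomplex factor Cox7a2l (-0.41 ± 0.16), did not pass the test. Nor did Cox7c, a small common subunit measured on a dim probe set, whose marrow-derived and brown arrays overlapped (0.07 ± 0.29, adjusted p = 0.894). Dimmer probe sets of Cox6a1 (-0.93 ± 0.17), Cox6b1 (-0.83 ± 0.16) and Cox7a2 (-0.65 ± 0.16) did pass. Their adjusted p by limma over all probe sets was 0.0207, 0.0259 and 0.0471. The other probe sets of Cox7a2l and Cox7c did not pass.

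Cox4i2 (chromosome 2), the isoform that takes the place of Cox4i1 in lung and under low oxygen, ran the other way. It stood at 9.07 and 9.31 in the marrow-derived arrays, 6.62 and 6.64 in the brown and 5.92 and 5.40 in the white. It was 5.89-fold higher in marrow-derived than in brown (2.56 ± 0.23, adjusted p = 0.00407) and 11.6-fold higher than in white adipocytes (3.54 ± 0.23, adjusted p = 0.00352). Brown and white arrays did not overlap but their difference did not pass (0.98 ± 0.23, adjusted p = 0.063). The call against brown was lost without brown replicate 2, where the difference was 2.57 (adjusted p = 0.0519). Markers of vessel wall cells were also high in the marrow-derived arrays: the mean of 5 smooth muscle and pericyte markers was 9.47 and 10.07 there, 7.86 and 7.67 in brown and 8.10 and 8.19 in white arrays. Of those markers 3 were higher than in brown (not Rgs5 or Cnn1) and 3 higher than in white (not Acta2 or Cnn1), while Cnn1 stayed under 5 on every array. The part of these cells in the Cox4i2 difference was not tested.

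**Figure D2:**
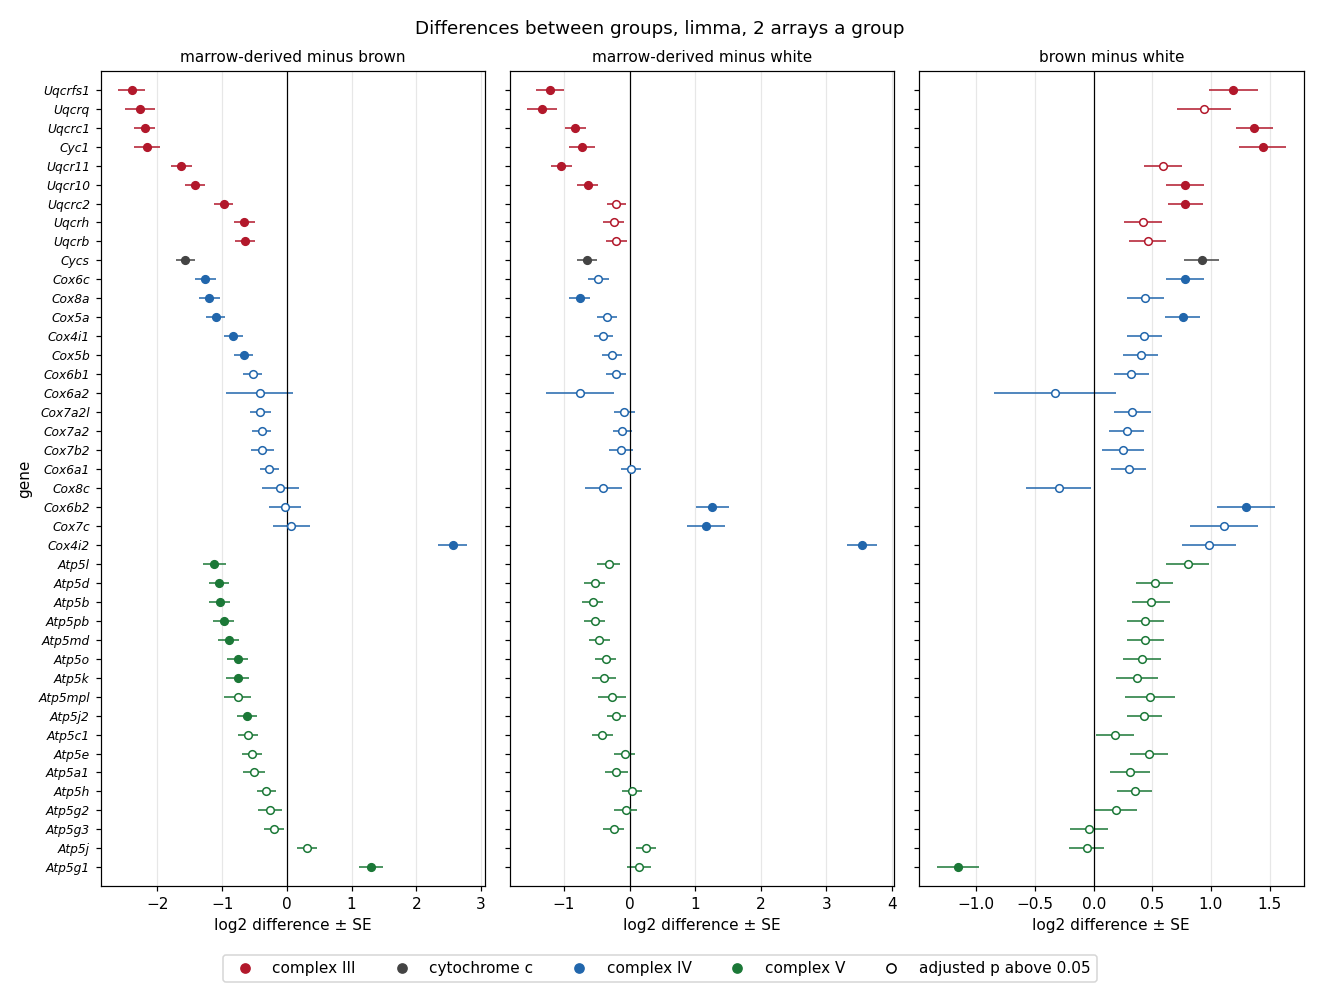
Log2 differences with limma's standard errors for the 42 genes (rows, coloured by complex) in 3 comparisons: marrow-derived minus brown, marrow-derived minus white and brown minus white, from left to right. Filled points have an adjusted p of at most 0.05; in the left panel the lowest points are complex III genes, down to -2.40 for Uqcrfs1, and Cox4i2 (2.56) and Atp5g1 (1.30) are the filled points above 0.

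ATP synthase genes were lower in marrow-derived than in brown adipocytes for 8 of 17 members and higher for 1. In the catalytic head Atp5b, the beta subunit that makes ATP, was 2.06-fold lower (-1.04 ± 0.16, adjusted p = 0.0136), with 12.40 and 12.23 in the marrow-derived arrays, 13.39 and 13.33 in the brown and 12.84 and 12.90 in the white. Atp5d, the delta subunit of the central stalk, was 2.07-fold lower (-1.05 ± 0.16, adjusted p = 0.0138). The alpha, gamma and epsilon subunits Atp5a1 (-0.51 ± 0.17), Atp5c1 (-0.60 ± 0.16) and Atp5e (-0.54 ± 0.16) did not pass. Among the small membrane subunits 4 of 5 were lower, led by Atp5l, subunit g (-1.12 ± 0.18, adjusted p = 0.0148), and including Atp5md, Atp5k and Atp5j2. Atp5mpl, the small proteolipid, did not pass (-0.76 ± 0.21, adjusted p = 0.0592). In the peripheral stalk Atp5pb (-0.98 ± 0.16) and Atp5o (-0.76 ± 0.16) were lower, while Atp5h (-0.32 ± 0.15) and Atp5j, coupling factor 6 (0.31 ± 0.15), did not pass.

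The genes of the c ring did not move together. Atp5g1, Atp5g2 and Atp5g3 encode the same mature c subunit behind different targeting sequences, so they are set side by side here with the bases just upstream of their starts. Sequences are RefSeq's, GRCm38.p6, minus strand, written 5′ to 3′. Capitals mark the NRF1 core in Atp5g2 and, in Atp5g3, the reverse complement of the estrogen-related receptor (ERR) element TCAAGGTCA. The Atp5g1 stretch (chr11:96075695-96075804) and the Atp5g2 stretch (chr15:102671048-102671157) end at the outermost annotated start, and of Atp5g3 the site with its flanks is given (chr2:73911359-73911388), since another transcript starts farther out.
Atp5g1: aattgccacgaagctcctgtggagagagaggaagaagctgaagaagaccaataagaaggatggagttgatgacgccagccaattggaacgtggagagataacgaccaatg
Atp5g2: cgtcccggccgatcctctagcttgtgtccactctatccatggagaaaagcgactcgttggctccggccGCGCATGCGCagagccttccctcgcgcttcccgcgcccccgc
Atp5g3: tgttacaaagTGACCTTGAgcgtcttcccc

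Atp5g1 (chromosome 11) was lowest in brown adipocytes and was the only member called lower in brown than in white. It stood at 11.68 and 11.48 in the marrow-derived arrays, 10.14 and 10.43 in the brown and 11.46 and 11.44 in the white. It was 2.46-fold higher in marrow-derived than in brown (1.30 ± 0.18, adjusted p = 0.0111) and 2.24-fold lower in brown than in white adipocytes (-1.16 ± 0.18, adjusted p = 0.0237). Both calls were lost without either brown array (differences of 1.15 and 1.45 against brown, and of -1.02 and -1.31 for brown against white), and the second also without either white array (-1.15 and -1.18). Averaged with a dim second probe set, which lay at 4.28 to 5.52 on all arrays, the difference of brown from white was -0.57 (adjusted p = 0.0762).

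The other c ring genes lay close together over the groups. Atp5g2 stood at 11.29 and 11.24 in the marrow-derived arrays, 11.36 and 11.68 in the brown and 11.30 and 11.36 in the white, and Atp5g3 at 12.86 and 12.70, 12.93 and 13.02, and 13.00 and 13.04 in the same groups. Their differences of marrow-derived from brown were -0.26 ± 0.18 (adjusted p = 0.36) and -0.20 ± 0.16 (adjusted p = 0.418), and neither passed in the other comparisons. Atpif1, the inhibitor that stops the enzyme from running backwards, is outside the symbol rule and was measured beside it. It stood at 11.55 and 11.34 in the marrow-derived arrays, 10.29 and 10.49 in the brown and 11.70 and 11.15 in the white. It was 2.08-fold higher in marrow-derived than in brown (1.06 ± 0.24, adjusted p = 0.0366), a call lost without any 1 of the marrow-derived or brown arrays, where the difference was 0.96 to 1.16. Its difference of brown from white did not pass (-1.04 ± 0.24, adjusted p = 0.062), although those arrays did not overlap.

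**Figure D3:**
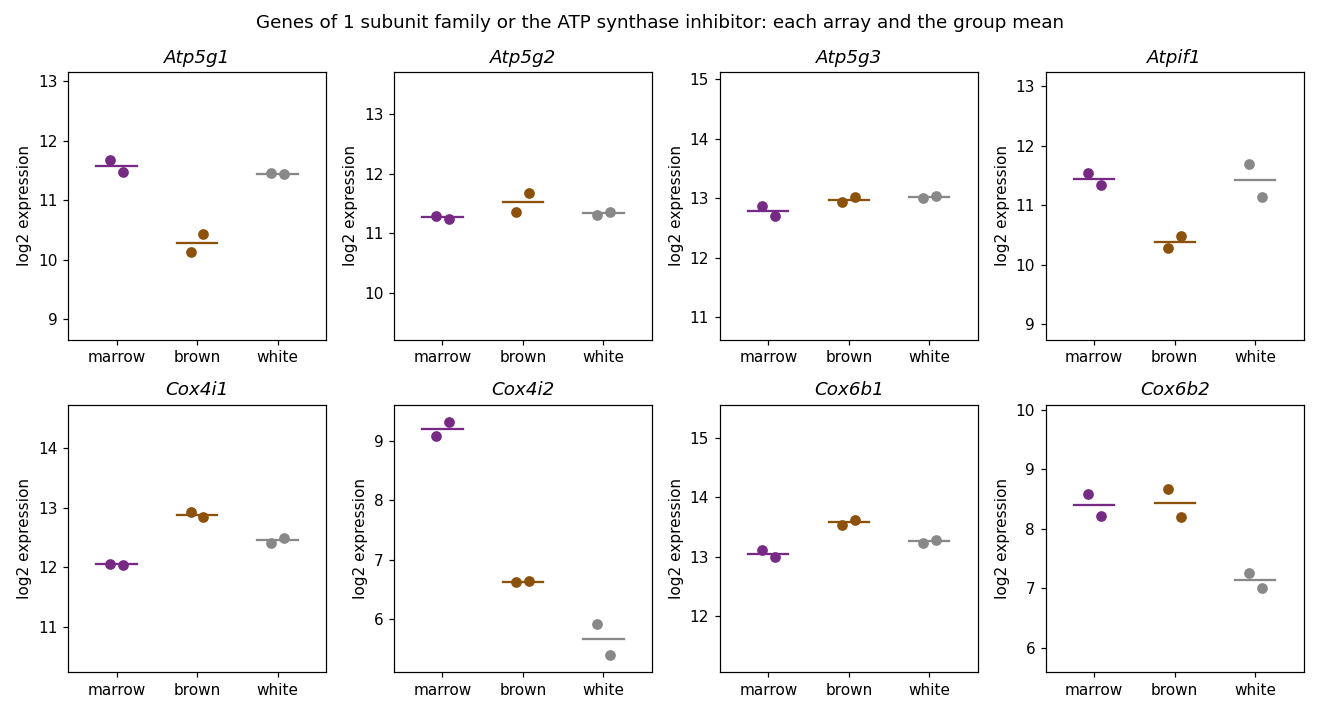
Log2 expression on each array (points) and the group mean (bars) in marrow-derived, brown and white adipocytes for the 3 c ring genes, the inhibitor Atpif1 and 2 isoform pairs of complex IV; every panel spans the same number of log2 units. Atp5g1 and Atpif1 are lowest in brown, Cox4i2 is highest in marrow-derived, and Cox6b2 is lowest in white.

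Set against white adipocytes, which share the gonadal depot, marrow-derived adipocytes had lower values mainly in complex III. Over the 42 genes 8 were called lower and 3 higher, or 26.2%, close to the 25.8% of all genes (13.6% lower and 12.2% higher), so the count does not set these genes apart. The lower genes were 6 of 9 in complex III, Cycs and Cox8a. On the probe sets used, 0 of 17 genes of complex V passed. Of those 17 genes, 14 had a difference below 0, against 9856 of 17720 over all genes. With a prior that follows the mean level limma called 18 of the 42 genes lower, against 2608 over all genes. Those 18 included Atp5b, Atp5c1, Atp5d, Atp5md, Atp5o and Atp5pb of complex V. Medians were -0.73 for complex III, -0.21 for complex IV (-0.27 for its 9 common subunits) and -0.27 for complex V, against -0.07 over all genes. Leaving out any 1 array gave 0 to 5 lower calls, with 0 without white replicate 2, 5 without marrow-derived replicate 1 (GFP) and 3 without any other. The higher calls fell to 1 without marrow-derived replicate 1 or either white array.

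Uqcrq was 2.51-fold lower (-1.33 ± 0.23, adjusted p = 0.0144), Uqcrfs1 2.32-fold lower (-1.21 ± 0.21, adjusted p = 0.0141) and Uqcr11 2.06-fold lower (-1.04 ± 0.16, adjusted p = 0.0114). Uqcr11, a small subunit of complex III, stood at 10.80 and 10.70 in the marrow-derived arrays, 12.32 and 12.44 in the brown and 11.71 and 11.88 in the white. Smaller differences passed for Uqcrc1 (-0.83 ± 0.16), Cyc1 (-0.73 ± 0.20), Uqcr10 (-0.64 ± 0.16) and Cycs (-0.65 ± 0.15, adjusted p = 0.0335). Cox8a was 1.70-fold lower (-0.76 ± 0.16, adjusted p = 0.0249), with 11.58 and 11.47 in the marrow-derived arrays, 12.68 and 12.79 in the brown and 12.22 and 12.37 in the white. In complex V the largest difference on the probe sets used was that of Atp5b (-0.56 ± 0.16, adjusted p = 0.0562). The dimmest probe set of Atp5a1 differed by -1.12 ± 0.16 (adjusted p = 0.00863 by limma over all probe sets). Its other probe sets, at -0.36 and -0.20, did not pass. With all probe sets of a gene averaged, Atp5a1 and Atp5d were called lower and Atp5g1 higher.

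All 3 higher genes belong to complex IV: Cox4i2, given above, Cox6b2 and Cox7c. Cox6b2, an isoform known from testis, stood at 8.58 and 8.22 in the marrow-derived arrays, 8.67 and 8.20 in the brown and 7.26 and 7.01 in the white. It was 2.40-fold higher in marrow-derived (1.26 ± 0.25, adjusted p = 0.0199) and 2.46-fold higher in brown (1.30 ± 0.25, adjusted p = 0.0367) than in white adipocytes, and the marrow-derived and brown arrays overlapped. The first call was lost without marrow-derived replicate 1 (1.08) or either white array (1.39 and 1.14), the second without any 1 of the brown or white arrays (1.06 to 1.53). Cox7c had 8.23 and 7.81 in the marrow-derived arrays, 8.27 and 7.64 in the brown and 7.03 and 6.67 in the white (1.17 ± 0.29 for marrow-derived against white, adjusted p = 0.0397). That call was lost without any 1 of the 6 arrays, with differences of 0.96 to 1.38. Its other probe set stayed between 3.69 and 4.55 and did not pass. Even the one used, with a mean of 7.61, was far dimmer than those of the other common subunits, with means of 12.19 to 13.46. Endothelial markers moved the same way as these genes: their mean over 8 markers was 11.33 and 11.97 in the marrow-derived arrays, 10.86 and 10.36 in the brown and 8.29 and 7.25 in the white, with 8 of 8 higher in marrow-derived and 7 of 8 higher in brown than in white. Their part in these differences was not tested.

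Brown adipocytes had higher values than white adipocytes for complex III and Cycs above all. Over the 42 genes 9 were called higher and 1 lower, or 23.8% against 9.21% of all genes (5.34% higher and 3.87% lower). The higher genes were 5 in complex III, 3 in complex IV and Cycs, and the lower one was Atp5g1. Medians were 0.78 for complex III, 0.40 for complex IV (0.43 for its 9 common subunits) and 0.41 for complex V, against -0.02 over all genes. Of the 42 differences 37 lay above 0, against 8518 of 17720 over all genes. Without either brown array or without white replicate 1 there were 0 higher calls, without white replicate 2 there were 2 (Cyc1 and Uqcrc1), and there were 0 lower calls without any 1 of these 4. Over all genes the higher calls numbered 7 and 5 without brown replicate 1 and brown replicate 2, against 946 with all arrays.

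Cyc1 was 2.71-fold higher in brown than in white (1.44 ± 0.20, adjusted p = 0.0175), Uqcrc1 2.58-fold (1.37 ± 0.16, adjusted p = 0.0136) and Uqcrfs1 2.28-fold (1.19 ± 0.21, adjusted p = 0.0300). Uqcr10 (0.78 ± 0.16), Uqcrc2 (0.78 ± 0.15) and Cycs (0.92 ± 0.15, adjusted p = 0.0271) also passed. In complex IV the called genes besides Cox6b2 were Cox6c (0.78 ± 0.16, adjusted p = 0.041) and Cox5a (0.76 ± 0.15, adjusted p = 0.0402), while Cox4i1 did not pass (0.43 ± 0.15, adjusted p = 0.156). Atp5l came nearest in complex V (0.80 ± 0.18, adjusted p = 0.0543). The isoforms that the symbol rule leaves out were farther apart than any member: Cox7a1 was 16.3-fold higher in brown than in white (4.03 ± 0.40, adjusted p = 0.0105), and Cox8b differed by 3.11 ± 1.21 without passing (adjusted p = 0.185). Cox8b stood at 13.17 and 13.24 in the brown and 10.44 and 9.76 in the white arrays, with no overlap. Its marrow-derived arrays lay far apart, at 9.35 and 5.48, and their spread enters the same standard error. Between marrow-derived and brown, Cox7a1 differed by -5.61 ± 0.40 and Cox8b by -5.79 ± 1.21, and both were called lower. The counts and medians of complex IV do not include them.

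Of the isoform genes known from other tissues, Cox7b2, Cox8c and Cox6a2 were called in 0 comparisons. Cox7b2 lay between 2.34 and 2.89 and Cox8c between 3.69 and 4.56 on all arrays, both testis isoforms. Cox6a2, the heart and muscle isoform, stood at 6.54 and 5.85 in the marrow-derived arrays, 7.26 and 5.97 in the brown and 7.31 and 6.59 in the white. Its distance of 1.30 between the brown arrays was the widest within any pair of arrays among the 42 genes. The 6 skeletal muscle markers averaged 4.86 and 4.88 in the marrow-derived arrays, 6.51 and 4.88 in the brown and 5.11 and 5.14 in the white. Of these markers 2 (Myh4 and Actn3) stayed under 5 on all arrays. Their part in the Cox6a2 values was not tested.

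The size of a subunit's difference went with the mean level of its probe set over all arrays, on a scale that ended at 13.91 to 13.97. The 18 genes with means of 12.51 to 13.46 had a median difference of marrow-derived from brown of -0.64, and the 18 with lower means, down to 11.11, had one of -1.16. Over those 36 genes the mean level and the size of the difference had a Spearman correlation of -0.63. It is given as a description, since the genes share arrays and depth of labelling. The mean level also takes in the marrow-derived arrays, so a larger drop there lowers it by itself. How much of the correlation comes from this overlap was not tested. Other probe sets of the same genes showed how far the choice matters. The probe set used was picked as the brightest by the same mean, which by itself favours smaller drops. The comparison below is therefore not independent of that mean. Of 28 other probe sets with a mean of at least 8, belonging to 20 of the genes, 28 had the same sign as the one used and 25 a larger difference of marrow-derived from brown, with a median of -0.95 against -0.72. Atp5a1, the alpha subunit of ATP synthase, differed by -1.75 ± 0.16 on its dimmest probe set (adjusted p = 0.00395 over all probe sets) and by -0.51 on the brightest. Uqcr10 differed by -2.93 ± 0.25 and -2.63 ± 0.26 on its other probe sets, and Cox5b by -1.51 ± 0.18 on one of mean 12.16. The part of the scale's upper end in the smaller differences of complexes IV and V was not tested.

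**Figure D4:**
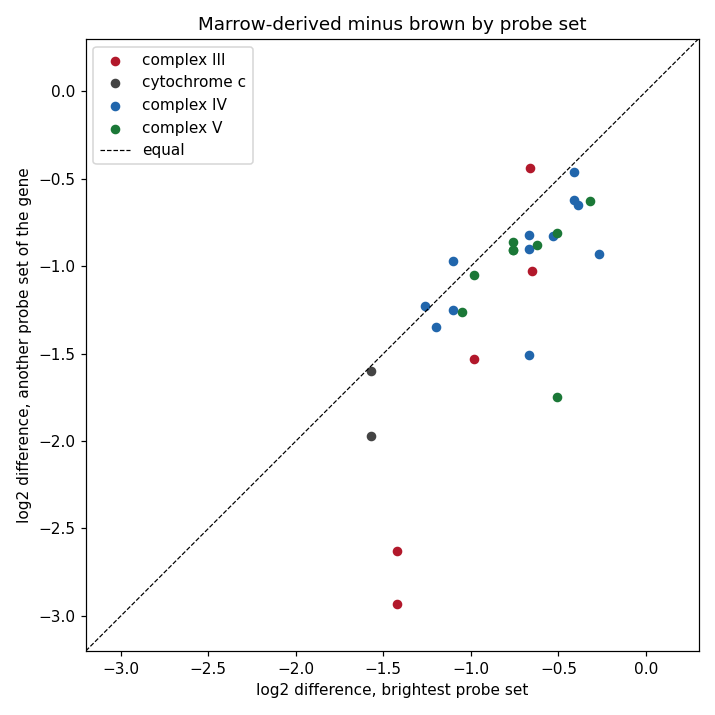
Log2 difference of marrow-derived from brown adipocytes on the brightest probe set of a gene (horizontal axis) and on each of 28 other probe sets with a mean of at least 8 (vertical axis), coloured by complex, with a dashed line of equality. Most points lie below the line, where the other probe set shows the larger difference, and Uqcr10 lies lowest at -2.93.

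Genes that build these complexes were also lower in marrow-derived than in brown adipocytes, with medians of -0.87 for complex III, -0.95 for complex IV and -1.69 for complex V. The counts below stand against 11.7% of all genes lower in marrow-derived than in brown, 13.6% lower than in white and 5.34% higher in brown than in white. Of 6 ATP synthase assembly genes 5 were lower in marrow-derived than in brown, 4 lower than in white, and 3 higher in brown than in white. Atpaf2, which helps assemble the catalytic head, was 7.24-fold lower than in brown and 3.76-fold lower than in white (-2.86 ± 0.17, adjusted p = 0.00206, and -1.91 ± 0.17, adjusted p = 0.00395). Tmem70, an assembly factor of the membrane part, differed by -2.46 ± 0.16 and -1.57 ± 0.16. Fmc1, which acts in assembly of the catalytic head in yeast, was higher in brown than in white by 1.81 ± 0.20 (adjusted p = 0.0125). Of 25 complex IV assembly and expression genes 15 were lower than in brown and 8 lower than in white, with 0 higher in either. They were led by Lrpprc, which stabilises mitochondrial messenger RNA (-2.71 ± 0.21 against brown), and Cox10, of heme a synthesis (-2.14 ± 0.18 against brown), and against white by Cox19 (-1.65 ± 0.27) and Higd1a (-1.39 ± 0.16). Between brown and white 4 were higher in brown, led by Coa7 (1.80 ± 0.22) and Lrpprc (1.47 ± 0.21). Of 6 complex III assembly genes 3 were lower than in brown, 1 lower than in white (16.7%, near the share of all genes) and 1 higher in brown than in white. Uqcc1, needed to make cytochrome b, was called in all 3 comparisons (-2.81 ± 0.26, -1.53 ± 0.26 and 1.28 ± 0.26), and its partner Uqcc2 against brown (-0.96 ± 0.17).

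Of 8 complex II subunit and assembly genes 7 were lower in marrow-derived than in brown, 4 lower than in white and 2 higher in brown than in white, against 11.7%, 13.6% and 5.34% of all genes. Sdhb, its iron-sulfur subunit, differed by -1.93 ± 0.25 between marrow-derived and brown and by 1.27 ± 0.25 between brown and white. The membrane anchors followed, Sdhc with -1.65 ± 0.17 between marrow-derived and brown and Sdhd with 0.98 ± 0.16 between brown and white. Against white the complex II assembly factors Sdhaf3 (-1.24 ± 0.20) and Sdhaf4 (-0.97 ± 0.15) had the largest differences of that list. ND5, the 1 mitochondrially encoded gene of the list that was measured and a subunit of complex I, was 1.96-fold lower in marrow-derived than in brown (-0.97 ± 0.20, adjusted p = 0.0277).

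Regulators of mitochondrial genes did not all move one way. Of 15 measured, 8 were lower and 2 higher in marrow-derived than in brown, against 11.7% and 8.71% of all genes. Against white 5 were lower and 3 higher, with 13.6% and 12.2% of all genes, and 5 were higher and 0 lower in brown than in white, with 5.34% and 3.87%. The higher calls in marrow-derived adipocytes are few and are not read as a result about the list. Esrrg, an estrogen-related receptor that drives respiratory genes, stood at 3.33 and 3.55 in the marrow-derived arrays, 10.15 and 10.11 in the brown and 7.43 and 6.59 in the white. It differed by -6.69 ± 0.30 from brown and -3.58 ± 0.30 from white (adjusted p = 0.00185 and 0.00386), and the marrow-derived values lay near background. Ppargc1a, the coactivator PGC-1 alpha, differed by -5.14 ± 0.47 from brown and -3.31 ± 0.47 from white (adjusted p = 0.00415 and 0.00907). Between brown and white the regulators with the largest differences were Esrrg (3.11 ± 0.30) and Ppargc1b, the coactivator PGC-1 beta (3.02 ± 0.19, adjusted p = 0.00497). Those called higher in marrow-derived adipocytes were Pprc1, a coactivator of the same family (1.17 ± 0.18 against brown, 0.96 ± 0.18 against white), Gabpb1, a subunit of the factor GABP (1.00 ± 0.26 and 1.77 ± 0.26), and against white also Gabpb2 (0.79 ± 0.19). The 3 were picked as the whole of that direction after their values were seen.

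Promoter windows from RefSeq (250 bases before to 50 after a start) were found for 31 of the 42 genes. The NRF1 core, spelled as the capitals in Atp5g2 above, lay in those of Uqcrc1, Cox6a1, Atp5g2 and Atp5k, or 4 of 31, against 1.07% of 27025 genes, searched on both strands. The ERR element TCAAGGTCA lay in 1 of 31, Atp5g3, against 0.466% of all genes. The GABP core CCGGAAG lay in 11 of 31 (2 of 5 in complex III, 3 of 10 in complex IV and 6 of 15 in complex V) against 9.93%, and the YY1 core in 0 of 31 against 0.755%. No motif lies within another. As examples, Uqcr11, low in marrow-derived adipocytes in both comparisons, holds the GABP core (capitals) in chr10:80406822-80406931, and Uqcrfs1, with the largest lower difference from brown, holds none of the motifs in its window (shown from chr13:30545317-30545426). Both are on the minus strand, 110 bases ending at the annotated start. A match in the letters is a description and says nothing on binding in these cells.
Uqcr11: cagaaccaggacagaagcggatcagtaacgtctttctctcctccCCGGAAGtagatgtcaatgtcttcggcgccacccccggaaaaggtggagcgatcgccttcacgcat
Uqcrfs1: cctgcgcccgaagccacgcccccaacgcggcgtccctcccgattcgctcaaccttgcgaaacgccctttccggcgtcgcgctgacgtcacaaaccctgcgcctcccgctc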

How the data were processed

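The authors deposited log2 expression for each probe set on each array. The submitters' processing notes list RMA and Partek without saying what each did. The log base was taken from the values, which ran from 1.67 to 13.97 with nearly the same range on every array. No detection calls were used here. Of 43057 probe sets, the platform annotation gave 33565 a single symbol and 857 several, and left 8635 unnamed here. The brightest probe set by mean over the 6 arrays stood for a gene, which gave 17720 genes. Group means of all 6 arrays were fitted with limma 3.58.1 in R 4.3.3 (lmFit, contrasts, eBayes with 3 residual and 2.35 prior degrees of freedom), with two-sided p-values adjusted by Benjamini and Hochberg's method across the 17720 genes and a threshold of 0.05. Values after ± are limma's standard errors. The fit was tested on simulated data. Members and lists were chosen with earlier results of these data known, so no list was tested as a set. Genes were named by rule: in each comparison the up to 3 called members per complex and direction with the largest difference, the isoform sets, cytochromes c and c1, the inhibitor, called members against their complex's median, and up to 2 called genes per list. Genes given beyond the rule are the rest of a complex or were chosen after their values were seen. Promoter windows and symbols are from RefSeq (GRCm38.p6). The number of arrays limits the precision.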

Additional observations from a re-analysis of the deposited data

How the results depend on the processing

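Calls depended on single arrays far more than directions did. Leaving out each array in turn, marrow-derived against brown gave 0 to 2 higher and 2 to 19 lower calls among the 42 genes, marrow-derived against white 1 to 2 higher and 0 to 5 lower, and brown against white 0 to 11 higher and 0 to 1 lower. The same step moved the complex III median of marrow-derived from white between -0.88 and -0.58, that of complex V between -0.37 and -0.16, and the complex V median of brown from white between 0.34 and 0.44. Over all genes, leaving out brown replicate 1 or 2 left 121 or 61 higher calls of marrow-derived against brown, in place of 1543.

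The labels do not say whether replicate numbers pair the samples. Deviations of same-numbered arrays correlated at -0.004 for marrow-derived with brown, 0.205 for marrow-derived with white and 0.277 for brown with white. These values do not settle it. With the replicate number as a block there were 18 lower calls against brown, 5 lower calls against white and 4 higher calls of brown against white. Fitting only the 4 arrays compared gave 3 lower calls of marrow-derived against white, and a prior with a trend on the mean gave 18, with 26 higher calls of brown against white. Over all genes that trend gave 2608 lower and 1148 higher calls in these comparisons.

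For marrow-derived against brown, the medians with arrays centred on their median were -1.72 for complex III and -0.71 for complex V. With all probe sets of a gene averaged they were -0.52 for complex IV and -0.76 for complex V. With the dimmest probe set of mean at least 8, an alternative chosen after seeing the data, they were -2.16, -0.65 and -0.86 for complexes III, IV and V. Against white that alternative gave -0.83 for complex III and -0.40 for complex IV. For brown against white, complex III had 0.87 with averaged and 0.97 with the dimmest probe sets, complex V had 0.46 with averaged probe sets and 0.46 with centred arrays, and averaging gave 0 lower calls. The causes were not tested.

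The genes whose direction turned were not called in the first place. Between marrow-derived and brown, leaving out 1 array took Cox6a2 between -1.06 and 0.23, Cox6b2 between -0.27 and 0.20 and Cox8c between -0.37 and 0.17. Between marrow-derived and white it took Cox6a1 between -0.00 and 0.05, Cox7a2l between -0.16 and 0.01 and Atpif1 between -0.26 and 0.30. Cox6a1 was also -0.18 with averaged probe sets, -0.01 with centred arrays and -0.38 with the dimmest probe set, and Atpif1 was -0.01 with centred arrays. Between brown and white, Cox6a2 ran between -0.98 and 0.31 and Atp5g3 between -0.08 and 0.00, with 0.02 for Atp5g3 with centred arrays. With 2 arrays a group and a scale that ends near 13.97, calls of small differences of bright genes depended on the prior: the trend gave 32 lower calls against brown, in place of 23. Over all genes it gave 2289, in place of 2068.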
